A study of Mus musculus with 45 samples.

Results

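The genes described here encode the proteins of the cytosolic ribosome. They were taken from the count table by symbol (Rpl or Rps with a number, together with Rplp0, Rplp1, Rplp2 and Rpsa, with no pseudogene symbol) and by level, a mean of at least 10 counts per 1000000 (CPM) over all 45 libraries. Of the 55367 symbols deposited, 89 matched the names and 79 of these reached the level, 47 from the large subunit and 32 from the small subunit. The level was therefore a condition of entry and not a result. Rps10, at a mean of 11.6 CPM, was the lowest member inside, and Rps4l at 9.65 CPM lay just outside. The next below was Rpl29, at 4.27 CPM. For 2 members the level was reached through one tissue, Rpl39l through the scaffolds and Rps10 through the spleens, and their mean over the other 33 libraries was 3.33 and 9.41 CPM.

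A ribosome is built from ribosomal RNA and one copy of nearly every one of these proteins, so the genes are usually expressed in step, and in most cells they are among the most abundant mRNAs. Their mRNAs begin with a short run of pyrimidines (the terminal oligopyrimidine, or TOP, motif) through which mTOR signaling and Larp1 set how many are translated and stored, and Myc raises their transcription in growing cells. Demand is high in dividing tumor cells, in lymphocytes that have been activated and in early blood precursors, and it is low in mature neutrophils. A few members have a paralog of restricted expression, and many have processed pseudogenes elsewhere in the genome whose sequence is almost the same as their mRNA.

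The libraries came from female Balb/c mice that carried porous polycaprolactone scaffolds under the skin, an implant in which immune and stromal cells collect. Mice were either controls without a tumor or received 2000000 67NR, 4T07 or 4T1 cells in the mammary fat pad, and tissues were taken at day 14. The cell lines come from one mouse mammary tumor and are described as nonmetastatic (67NR), micrometastatic (4T07) and metastatic (4T1). Scaffold, lung and spleen were sequenced in all 4 arms and the tumor in the 3 arms that had one, which gave 15 groups of 3 libraries. Each tumor arm is thus a single cell line at a single time, the controls carried the same implant, and every library is a whole tissue. The labels do not say which tissues shared a mouse, and p-values measure the spread between these samples. In bulk RNA, fewer cells of a type and less RNA per cell cannot be told apart.

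Libraries held 3491888 to 8175380 counts with a median of 5149589, so 1 CPM stood for a few reads. The tissues carried their own markers. The 8 lung epithelium genes summed to 5995 to 38364 CPM in the lungs, and to 10.2 to 459 elsewhere. The 8 B cell genes reached 409 to 2082 CPM in the spleens, and the 7 fibroblast genes 8409 to 17559 in the scaffolds. These 2 sums overlapped with other tissues. B cell genes summed to 449 to 603 CPM in 4T07 lungs, and fibroblast genes to as much as 8999.65 in the tumors. The 4T07 scaffold of replicate 1 stood apart from the other 2 of its group. Its neutrophil, erythroid and proliferation genes summed to 8916, 25642 and 1217 CPM, against at most 2308, 7122 and 400.0 in the other 2 libraries.

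Promoters are shown for 2 paralog pairs whose partners had different levels across these tissues, Rpl39 with Rpl39l and Rps27 with Rps27l. Each window runs from 100 bases before the annotated start of transcription to base 30 of the transcript (130 bases, RefSeq on GRCm38.p6), and is printed 5′ to 3′ on the gene's own strand. They lie at chrX:37085193-37085322 (minus strand, Rpl39), chr16:10170128-10170257 (plus, Rpl39l), chr3:90213619-90213748 (minus, Rps27) and chr9:66945986-66946115 (plus, the first of the promoters listed for Rps27l). Capitals mark CCGGAAG, an ETS family core, on either strand, or a run of 8 or more C and T that holds the start. Such a run may begin before the start, while a TOP motif opens the mRNA itself, so the 2 are not the same.
Rpl39: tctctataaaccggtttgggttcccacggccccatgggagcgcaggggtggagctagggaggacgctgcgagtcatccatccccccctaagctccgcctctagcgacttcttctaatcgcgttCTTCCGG
Rpl39l: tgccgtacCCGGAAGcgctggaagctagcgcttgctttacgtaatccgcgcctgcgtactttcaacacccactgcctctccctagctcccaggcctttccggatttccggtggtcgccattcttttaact
Rps27: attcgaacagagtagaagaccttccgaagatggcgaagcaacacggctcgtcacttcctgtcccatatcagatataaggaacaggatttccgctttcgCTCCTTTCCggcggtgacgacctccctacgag
Rps27l: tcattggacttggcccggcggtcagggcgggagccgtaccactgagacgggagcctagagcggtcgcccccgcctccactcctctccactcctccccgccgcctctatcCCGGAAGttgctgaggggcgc
In this set a run of 8 or more at the start stood in Rps27, where it was 9 bases long, and not in the other 3 windows. The run of Rps27 began before the annotated start. Rpl39 held a shorter run of 5 bases that lay mostly upstream and ended on its annotated first base. Rpl39l and Rps27l held none. The outcome depends on the annotated start and on the length required. CCGGAAG stood just inside the transcript of Rpl39 and Rps27l and well upstream in Rpl39l. RefSeq promoters were matched for 60 of the 79 genes (71 promoters in all), and 300-base windows of these were set beside all 32851 mouse promoters of the same length. CCGGAAG on either strand was in 38% of the members' promoters and 8.86% of all. A run of 8 or more C and T that held the annotated start, on either side of it, was in 23.9% against 3.86%. CTCTTTC was in 29.6% against 8.16% and AAGATGG, the core read by Yy1, in 16.9% against 6.34%, both on either strand. TATAAA, the TATA box, was in 9.86% against 13.6%. These are matches of letters and not measured binding sites.

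Summed over the 79 genes, ribosomal protein mRNA took the largest mean share of counts in 67NR tumors and the smallest in 67NR lungs. The 67NR tumors gave 8.38, 8.91 and 9.47% of their counts to these genes, the 4T07 tumors 4.77, 6.43 and 5.02% and the 4T1 tumors 7.93, 7.03 and 5.70%. In lungs the shares were 4.64, 4.82 and 3.11% in controls, 2.34, 2.602 and 2.29% with 67NR, 4.01, 4.02 and 3.48% with 4T07 and 3.15, 2.55 and 3.23% with 4T1. All 67NR lungs lay below every control lung and every 4T07 lung, while the 4T07 and 4T1 lungs overlapped the controls, whose replicate 3 was low. The spleens held 8.07, 6.45 and 4.91% in controls, 3.78, 4.30 and 5.35% with 67NR, 5.83, 5.57 and 3.89% with 4T07 and 5.89, 5.39 and 6.44% with 4T1, and the control spleens were spread the most and overlapped every other arm. In scaffolds the controls gave 5.15, 5.39 and 5.61%, the 67NR group 5.89, 5.41 and 4.72%, the 4T07 group 4.20, 3.09 and 2.67% and the 4T1 group 4.20, 2.63 and 4.66%. Every 4T07 and 4T1 scaffold lay below every control and 67NR scaffold.

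With 3 libraries against 3 a two-sided exact permutation test cannot go below 0.1, and it reached that value where the groups were apart. The 67NR lungs differed from the control lungs by a log2 ratio of mean shares of -0.80 (exact permutation p = 0.1), and the 4T07 lungs from the 67NR lungs by 0.67 (exact permutation p = 0.1). The 4T07 scaffolds stood -0.70 (exact permutation p = 0.1) from the controls, and the 4T1 scaffolds -0.49 (exact permutation p = 0.1), a value that was -0.28 without 4T1 scaffold replicate 2. In the tumors the 4T07 share stood -0.72 (exact permutation p = 0.1) from that of 67NR, and the 4T1 share -0.37 (exact permutation p = 0.1), which was -0.25 without 4T1 tumor replicate 3. The share is a sum led by the most abundant members, and the fits per gene below show which of them moved. By group mean, 49 of the 79 genes were highest in the 67NR tumors and 56 were lowest in the 67NR lungs.

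**Figure D1:**
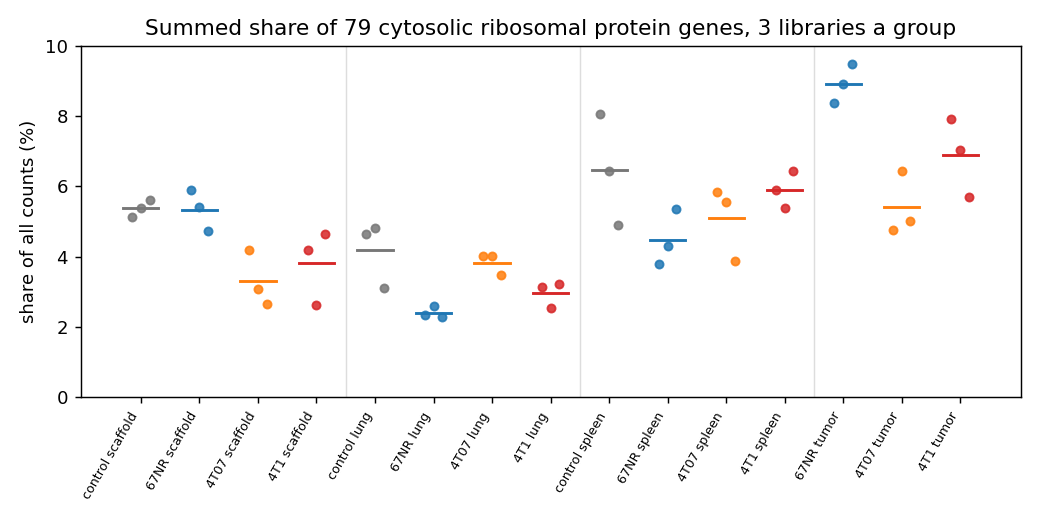
Summed share of counts (percent, linear axis) of the 79 ribosomal protein genes in each of the 45 libraries, by tissue and arm, with the mean of each group. The 3 libraries of 67NR tumors sit between 8.38% and 9.47%, above every other library, and the 3 of 67NR lungs between 2.29% and 2.602%.

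In some libraries nearly all members lay on one side of the mean of their group. In the control lung of replicate 3, 75 of 79 genes lay below the mean of their group, with a median deviation of -0.42 (log2). The control spleens ran from 0.44 in replicate 1 through 0.028 in replicate 2 to -0.42 in replicate 3, as medians of the same deviations. In the 4T07 scaffold of replicate 1, 77 of 79 genes lay above their group's mean, and in 4T07 spleen replicate 3 and 4T1 scaffold replicate 2 the medians were -0.49 and -0.48. In other libraries the members divided, with 49 above and 30 below in 4T07 lung replicate 1 and 24 above and 55 below in 67NR tumor replicate 1. These shifts within groups were as large as several of the differences between groups, and counts of called members below are given with the libraries that decide them.

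The spread between replicates also differed from gene to gene. The within-group standard deviation over the 15 groups had a median of 0.36 (log2) for the members and 0.25 for the 9916 genes of at least 10 CPM. The steadiest were Rpl7l1 at 0.137, Rpsa, which also serves as a laminin receptor precursor, at 0.146, and Rplp0 at 0.160, the base of the stalk that recruits elongation factors. The stalk protein Rplp1, the small subunit proteins Rps13 and Rps3, Rpl7 and Rpl13a came next, between 0.169 and 0.201. The most variable were Rpl22l1 at 1.30, Rps6, the substrate of the S6 kinases, at 1.01, Rpl35 at 0.784, Rpl10 at 0.771 and Rps27a, a fusion of ubiquitin and a ribosomal protein, at 0.694.

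Near copies elsewhere in the genome held counts beside many members. Of 77 members with a transcript in GENCODE vM1 (NCBIM37), 31 had no other place in the genome that matched the last 200 bases of the transcript over at least 100 bases at 98% identity, 11 had 5 or more such places, and the most was 14. In 15 pairs of a gene and an annotated copy the copy itself averaged at least 50 CPM, and in 8 of these the copy held more counts than the gene. Rpl10, which joins the large subunit late near its catalytic centre, averaged 118 CPM against 1271 for Rpl10-ps3, so 91.5% of their counts were under the copy's name. For Rpl26, known for binding the p53 mRNA, 93.4% were under Gm15772, and for Rps10 88.4% were under Rps10-ps1.

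In 6 of the 15 pairs the deviations of the gene and its copy within groups were negatively correlated. Pearson's r over the deviations of 45 libraries was -0.74 for Rpl3, which lies at the catalytic centre, and Rpl3-ps1, and -0.31 for Rpl10 and Rpl10-ps3. The points of a pair share a library and its depth. The sum was steadier than the gene in 13 pairs. For Rpl3 the within-group standard deviation was 0.374 for the gene, 0.2935 for the copy and 0.149 for the sum. For Rpl10 it went from 0.771 to 0.270, where the copy alone, with most of the counts, had 0.310. Rpl26 and Gm15772 moved together (r = 0.79) and their sum gained little, from 0.529 to 0.466. Values of members with copies are therefore uncertain as values of single genes, and every comparison was also run with the 96 annotated copies of 38 members added to them, a choice made after seeing the data.

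**Figure D2:**
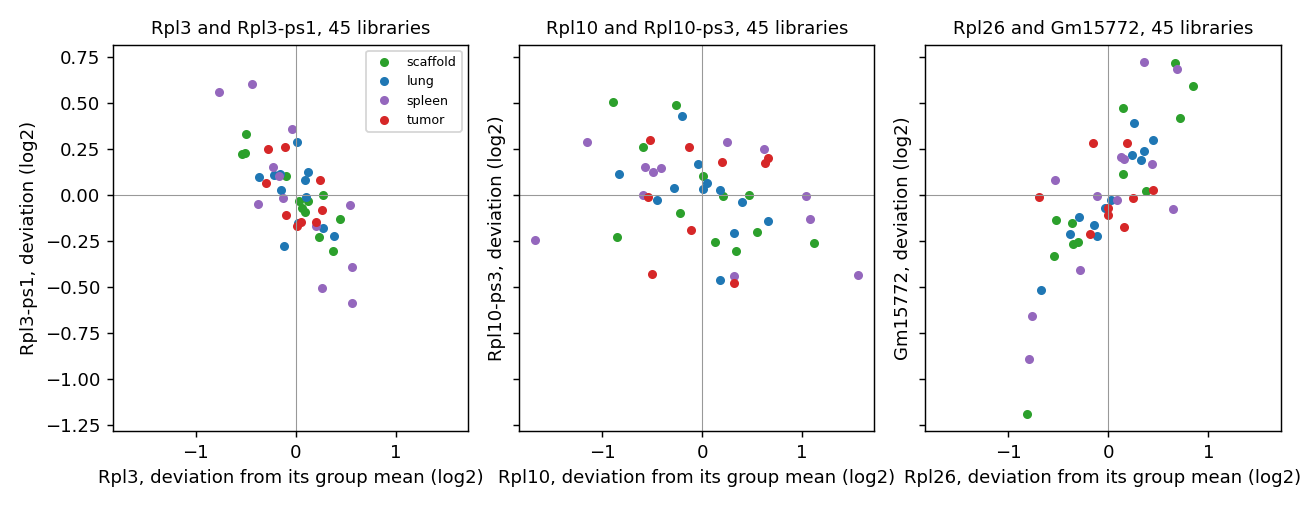
Deviation of each library from its group's mean (log2) for 3 genes (horizontal) and their near copies (vertical), 45 libraries a panel. Points fall from upper left to lower right for Rpl3 with Rpl3-ps1 (r = -0.74), less so for Rpl10 with Rpl10-ps3 (r = -0.31), and they climb from lower left to upper right for Rpl26 with Gm15772 (r = 0.79).

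Rpl39l, the paralog of Rpl39 best known from male germ cells, entered the set through its level in the scaffolds, so its levels across tissues are given as a description with no test. The control scaffolds gave 49.9, 52.6 and 53.8 CPM, the 67NR scaffolds 64.3, 67.1 and 59.0, the 4T07 scaffolds 37.4, 43.0 and 49.5 and the 4T1 scaffolds 45.7, 45.9 and 52.4. The control lungs gave 2.61, 0.721 and 1.29 and the control spleens 2.14, 1.15 and 0.862, and no lung or spleen of any arm passed 3.29 CPM. Rpl39 itself, which lines the exit tunnel, gave 404, 446 and 500.1 CPM in control scaffolds and 448, 435 and 277 in control lungs, and the log2 difference of lungs from scaffolds was -0.43 ± 0.31 (SE), adjusted p = 0.288 in edgeR. Among the scaffolds the 67NR group lay above all others, and 4T07 was called lower than 67NR (-0.62 ± 0.16 (SE), adjusted p = 0.0208). No other comparison of scaffolds called it.

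In the tumors Rpl39l was at 1.88, 4.48 and 4.52 CPM with 67NR, 11.0, 5.99 and 9.88 with 4T07 and 12.3, 7.79 and 16.8 with 4T1. The 67NR tumors lay below all others. The 4T1 tumors were called higher than the 67NR tumors by 1.56 ± 0.40 (SE), adjusted p = 0.00761, the one member called higher there, and for 4T07 the difference was 1.04 ± 0.41 (SE), adjusted p = 0.0526. The 7 fibroblast markers, whose largest sums were in the scaffolds, summed to 922 to 1148 CPM in 67NR tumors and 4842 to 8999.6 in the other tumors. Their part in the Rpl39l values was not tested.

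Rps27l, a p53 target and paralog of Rps27, was highest in 67NR tumors. It gave 295, 366 and 479.6 CPM there, 155, 147 and 110.1 in 4T07 tumors and 217, 193 and 182 in 4T1 tumors, with no overlap of 67NR with either. Its log2 difference from 67NR was -1.72 ± 0.20 (SE), adjusted p = 8.54e-06 for 4T07 and -1.15 ± 0.20 (SE), adjusted p = 3.69e-04 for 4T1. Rps27 was lower as well, at -1.43 ± 0.23 (SE), adjusted p = 1.80e-04 and -0.71 ± 0.23 (SE), adjusted p = 0.0262, the second of which was not called without 67NR tumor replicate 2 or 3, without 4T1 tumor replicate 3 or on library totals. The log2 ratio of the pair lay between -3.08 and -2.65 as group means. In control tissues Rps27l was at 291, 263 and 296 CPM in scaffolds and 182, 143 and 137 in spleens, apart by -1.05 ± 0.20 (SE), adjusted p = 4.81e-04.

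Rpl22l1, whose mRNA the protein of its paralog Rpl22 represses, varied widely within groups. The control spleens gave 69.7, 11.5 and 3.23 CPM, the 67NR spleens 8.79, 1.02 and 1.35 and the 4T1 spleens 2.40, 11.3 and 64.2. Within each of these groups the libraries differed by several times, and the call of 4T1 above 67NR spleens (3.12 ± 1.19 (SE), adjusted p = 0.0594) stood beside overlapping groups and ended without 67NR spleen replicate 2 or 3 or 4T1 spleen replicate 3. The lungs were apart, with 28.2, 37.0 and 13.6 CPM in controls and 8.81, 9.26 and 6.51 with 67NR, a difference of -1.79 ± 0.41 (SE), adjusted p = 0.0106. Rpl7l1, in contrast, the steadiest of the members, stayed between 49.9 and 98.6 CPM in all 45 libraries.

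**Figure D3:**
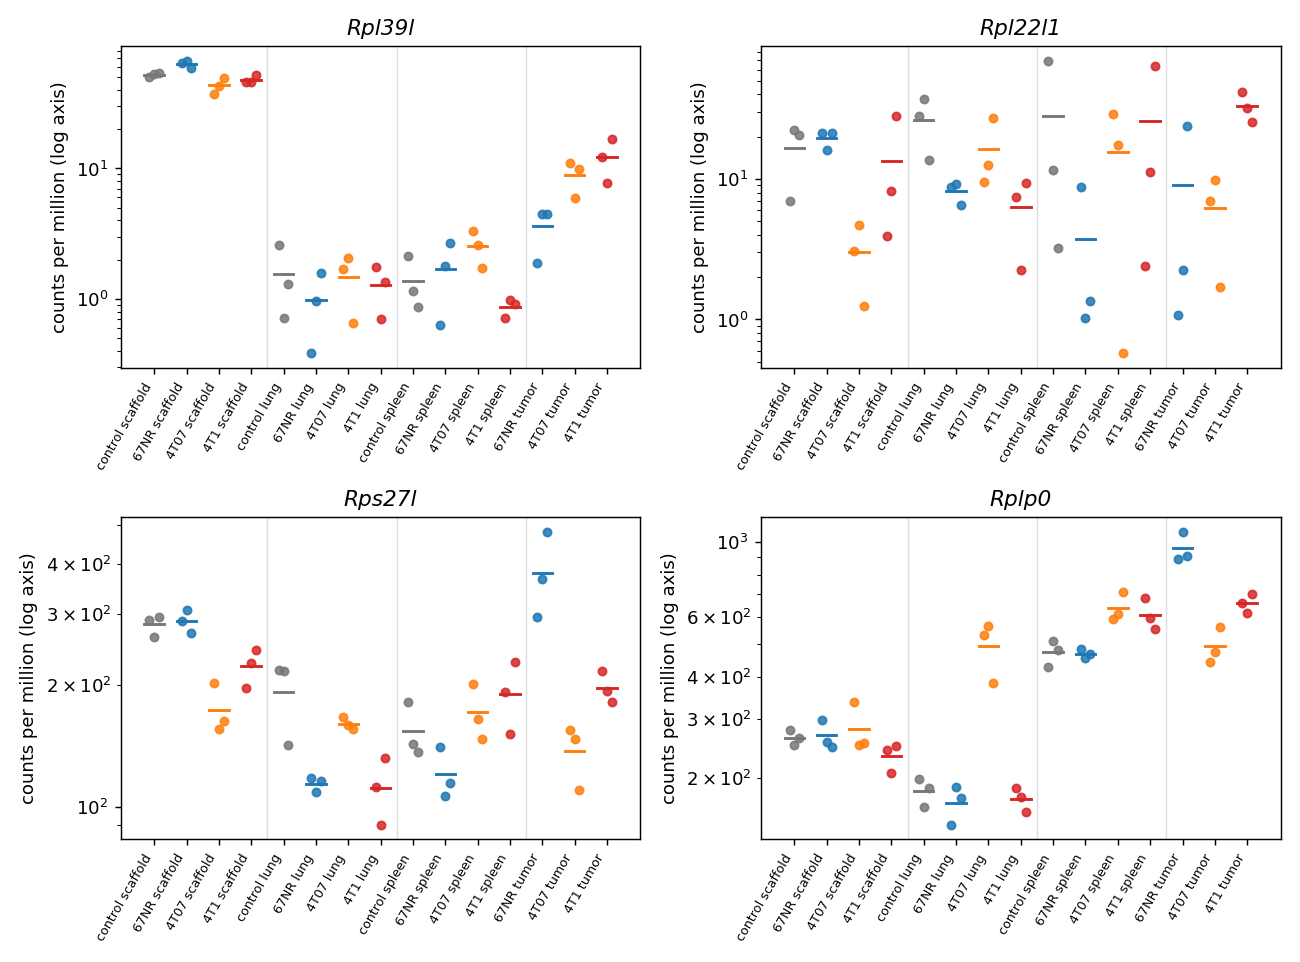
Level (CPM, log axis) of members in each library, grouped by tissue and arm, with one point for each of 3 replicates. Rpl39l is between 37.4 and 67.1 CPM in the scaffolds and at most 16.8 CPM in every other library, and Rplp0 in the 3 lungs with 4T07 lies above every other lung.

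Most ribosomal protein genes were lower in 4T07 than in 67NR tumors, and a smaller number were lower in 4T1 tumors. Between 4T07 and 67NR, 57 of 79 members were called lower (adjusted p under 0.05, quasi-likelihood F test of edgeR, adjusted by Benjamini-Hochberg over all genes) and none higher, where 18.5% of all genes tested were lower and 22.9% higher. The median log2 fold change was -0.89 for the members and 0.16 for all genes. A fold over 2 was reached by 36 of those lower, beside 11.8% of all genes. Rpl26 gave 24.5, 47.6 and 54.8 CPM in 67NR and 9.83, 13.1 and 11.3 in 4T07 tumors, -2.14 ± 0.28 (SE), adjusted p = 2.69e-05. Rpl41, the smallest protein of the ribosome, gave 2709.9, 2622 and 3097 in 67NR and 733, 898 and 681 in 4T07 tumors, -2.12 ± 0.19 (SE), adjusted p = 8.21e-07. These 2 genes did not overlap between the groups. Rps6 gave 5.91, 35.2 and 71.4 CPM in 67NR and 9.63, 16.5 and 4.23 in 4T07 tumors, -2.11 ± 0.58 (SE), adjusted p = 0.00902, and its groups overlapped. Its call ended without 67NR tumor replicate 3.

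In 4T1 tumors 32 members were lower than in 67NR tumors and 1 higher, beside 14.8% and 16.7% of all genes, with a median of -0.45. Rpl13a, which in macrophages leaves the ribosome to silence inflammatory mRNAs, led the decreases with 194, 260.2 and 279 CPM in 67NR and 113, 127 and 119.6 in 4T1, -1.23 ± 0.18 (SE), adjusted p = 7.63e-05. The count was 21 without 67NR tumor replicate 2, 67NR tumor replicate 3 or 4T1 tumor replicate 3. On library totals without TMM scaling it was 18 lower and 4 higher, a scaling that moved the median of all genes by 0.20. Against 4T07, 20 members were higher in 4T1 tumors and none lower, beside 7.69% and 6.98% of all genes. Rpl22l1 led with 7.02, 9.80 and 1.69 CPM in 4T07 and 41.7, 32.2 and 25.5 in 4T1, 2.42 ± 0.68 (SE), adjusted p = 0.0269, followed by Rpl15, a core protein of the large subunit, at 1.42 ± 0.39 (SE), adjusted p = 0.0239. Neither was called by DESeq2 or without any one of 4T07 tumor replicates 1 and 3 and 4T1 tumor replicates 1 and 2. That count rested on single libraries. It was 3 without 4T07 tumor replicate 1, 5 without 4T07 tumor replicate 3, 4 without 4T1 tumor replicate 1, 7 without 4T1 tumor replicate 2 and 33 without 67NR tumor replicate 1.

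Members with a textbook role were among both the called and the uncalled. The 2 that bind Mdm2 with 5S RNA when ribosome assembly is blocked were not called in the tumors: Rpl5 stood at 0.26 ± 0.24 (SE), adjusted p = 0.397 for 4T07 against 67NR and Rpl11 at 0.028 ± 0.17 (SE), adjusted p = 0.911. Rps3, which also takes part in DNA repair, gave 2878, 3595 and 3523 CPM in 67NR, 1366, 1714 and 1397 in 4T07 and 1904, 1877 and 1615 in 4T1 tumors. The 67NR tumors were above all others, and the log2 difference from them was -1.41 ± 0.19 (SE), adjusted p = 2.91e-05 for 4T07 and -1.09 ± 0.19 (SE), adjusted p = 3.34e-04 for 4T1. Rplp0 was lower likewise, at -1.21 ± 0.17 (SE), adjusted p = 6.29e-05 and -0.73 ± 0.17 (SE), adjusted p = 0.00430. Rps19, which is mutated in Diamond-Blackfan anemia, stood at -1.63 ± 0.26 (SE), adjusted p = 1.71e-04 and -0.70 ± 0.26 (SE), adjusted p = 0.0492, and Rps14 at -0.83 ± 0.17 (SE), adjusted p = 9.71e-04 and -0.47 ± 0.17 (SE), adjusted p = 0.0396. The calls of Rps19 and Rps14 in 4T1 tumors ended on library totals and without single libraries, 67NR tumor replicates 2 and 3 and 4T1 tumor replicates 2 and 3 for both, with 4T07 tumor replicate 3 for Rps19 and 4T1 tumor replicate 1 for Rps14. That of Rps19 also ended with a minimum of 10 counts in every library and that of Rps14 with no count filter.

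Many genes that serve ribosome production were lower in the 4T07 tumors too. Of 46 ribosome biogenesis factors 25 were lower and 2 higher than in 67NR tumors, of 19 translation factors and other TOP genes 10 were lower and none higher, and of 68 mitochondrial ribosomal proteins 37 were lower and none higher, beside 18.5% of all genes lower and 22.9% higher. The biogenesis factors of largest change were Bop1 at -1.86 ± 0.27 (SE), adjusted p = 5.80e-05 and Fbl, the methyltransferase of ribosomal RNA, at -1.82 ± 0.18 (SE), adjusted p = 2.24e-06. Eef2, the elongation factor, stood at -1.33 ± 0.16 (SE), adjusted p = 1.37e-05. The 35 proteasome subunits divided into 9 higher and 13 lower. Of 10 p53 targets 7 were lower in 4T07 and 9 in 4T1 tumors, and none was higher, with Eda2r at -5.27 ± 0.40 (SE), adjusted p = 1.26e-07 and -4.33 ± 0.36 (SE), adjusted p = 3.26e-07. Between 4T1 and 67NR tumors 12 biogenesis factors were lower and 2 higher, and 25 mitochondrial ribosomal proteins were lower and 3 higher, beside 14.8% of all genes lower and 16.7% higher. The proliferation genes summed to 1948 to 2026 CPM in 67NR, 1245 to 1668 in 4T07 and 1582 to 1810.3 in 4T1 tumors. Neutrophil markers summed to 23.7 to 384, 1060.0 to 5446 and 540.1 to 842 CPM. NK cell genes summed to 173 to 187 CPM in 67NR, 76.5 to 81.8 in 4T07 and 35.0 to 48.3 in 4T1 tumors, plasma cell genes to 101 to 115, 202 to 283 and 255 to 294, erythroid genes to 1432 to 1684, 4758 to 22659 and 1979.9 to 2432, and epithelium genes to 19.8 to 33.0, 169 to 229.9 and 1148 to 1260.1. Mitochondrially encoded genes took 9.68 to 11.6% of counts in 67NR and 7.05 to 8.94% in 4T1 tumors. The part of such differences in the members' values was not tested.

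**Figure D4:**
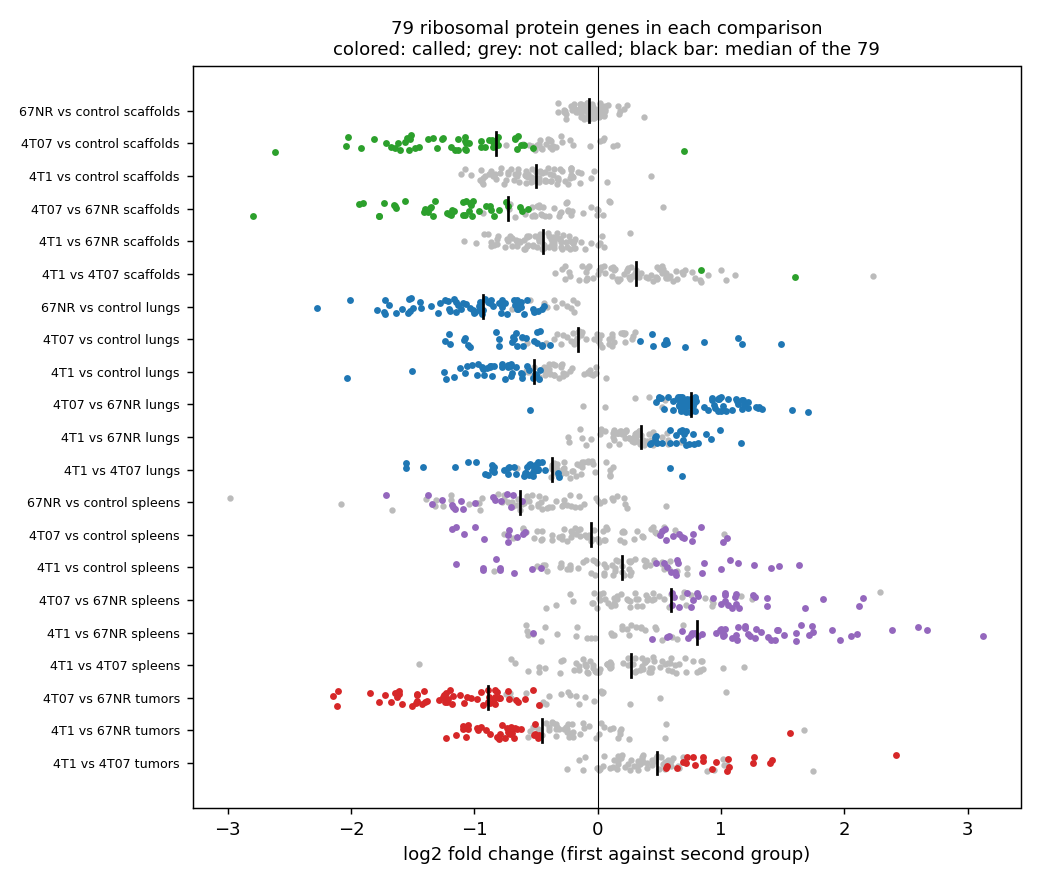
Log2 fold change of each of the 79 members in the comparisons within scaffolds, lungs, spleens and tumors, with called members marked and the median of each comparison drawn. Most points lie below 0 for 67NR against control lungs (median -0.93) and for 4T07 against 67NR tumors (median -0.89), and above 0 for 4T07 against 67NR lungs (median 0.76).

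In the lungs of mice with 67NR tumors most members were lower than in control lungs. In all, 68 of 79 members were called lower and none higher (adjusted p under 0.10 here and in all comparisons outside the tumors), beside 6.25% and 6.51% of all genes tested, and the median log2 fold change was -0.93 against 0.031 for all genes. Of these, 33 members passed a fold of 2, beside 1.73% of all genes lower and 2.52% higher by as much. Rpl35, a protein of the tunnel exit, gave 126, 126 and 55.7 CPM in control and 22.0, 24.9 and 21.6 in 67NR lungs, -2.28 ± 0.25 (SE), adjusted p = 3.15e-04. Rpl26 gave 33.5, 28.9 and 14.9 in control and 8.81, 5.36 and 6.65 in 67NR lungs, -2.01 ± 0.28 (SE), adjusted p = 7.00e-04. Both were apart in all libraries. The decrease covered both subunits, with 39 of 47 large and 29 of 32 small subunit genes. It held with 26 of 31 genes that had no near copy. Leaving out 1 library gave 52 to 72 members lower.

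Parts of the related lists were lower in the same lungs, where 6.25% of all genes were lower and 6.51% higher. Of 19 translation factors and other TOP genes 8 were lower and none higher, with Eef1b2 at -1.33 ± 0.21 (SE), adjusted p = 0.00129 and the initiation factor Eif3m at -1.20 ± 0.32 (SE), adjusted p = 0.0250. Of 8 snoRNA host genes, which also carry TOP starts, 4 were lower, and of 68 mitochondrial ribosomal proteins 32, with none higher in either list. Of 46 biogenesis factors 8 were lower and 2 higher, and of 35 proteasome subunits 13 and 1. The neutrophil and proliferation markers overlapped between these lungs, with neutrophil genes at 245 to 313 CPM in control and 254 to 290.1 in 67NR lungs, and proliferation genes at 181 to 221 and 164 to 237. Other marker sums were apart. The NK cell genes were lower with 67NR (69.0 to 89.0 CPM against 109 to 159), and those of plasma cells (263 to 317 against 209 to 238), epithelium (707 to 750.4 against 580.5 to 656) and endothelium (2819 to 2981 against 2503 to 2635) were higher. Striated muscle genes ranged from 78.3 to 429.5 CPM with 67NR and from 60.8 to 78.98 in controls. Their part in the members' values was not tested.

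In lungs with 4T07 tumors 12 members were higher and 25 lower than in control lungs, beside 25.2% and 25.0% of all genes, the former a smaller share than among all genes and the latter close to it, and the median was -0.16. Rplp0 gave 199, 164 and 188 CPM in control, 146, 188 and 174 in 67NR, 531, 564 and 384 in 4T07 and 187, 176 and 159 in 4T1 lungs. The 4T07 lungs were above all the others, by 1.49 ± 0.16 (SE), adjusted p = 2.68e-07 against controls. Rpsa gave 257, 269 and 231 CPM in control and 520.1, 587 and 491 in 4T07 lungs, 1.14 ± 0.13 (SE), adjusted p = 6.15e-07. Rpl13a gave 35.2, 33.0 and 30.4 in control and 73.0, 80.9 and 58.1 in 4T07 lungs, 1.17 ± 0.15 (SE), adjusted p = 2.42e-06. All 3 belong to the members that varied least between replicates. Among the members that were lower, Rpl35 was at 48.3, 41.3 and 35.6 CPM, -1.24 ± 0.24 (SE), adjusted p = 2.56e-04, and Rpl23a, which contacts the signal recognition particle, at -1.20 ± 0.20 (SE), adjusted p = 4.90e-05. Rpl10 was at -1.21 ± 0.28 (SE), adjusted p = 0.00130, but with the counts of its copies added the difference was 0.13 and was not called.

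The number of members lower in 4T07 than in control lungs moved with single libraries. It was 13 without control lung replicate 1, 12 without control lung replicate 2, 38 without control lung replicate 3 and 14 without 4T07 lung replicate 1. Adding the copies gave 16 higher and 19 lower. Of the other stalk proteins, Rplp2 was higher (0.34 ± 0.15 (SE), adjusted p = 0.0723), though not on library totals, with no count filter or without control lung replicate 3, and Rplp1 stood at 0.14 ± 0.16 (SE), adjusted p = 0.527.

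Set against lungs of 67NR mice, which also bore a tumor, the 4T07 lungs were higher in 71 members and lower in 1, beside 24.6% and 25.8% of all genes, with a median of 0.76 against -0.035 for all genes. A fold over 2 was passed by 20 members, beside 14.4% of all genes. Rplp0 stood at 1.71 ± 0.16 (SE), adjusted p = 5.42e-08, Rpl13a at 1.58 ± 0.15 (SE), adjusted p = 6.41e-08 and Rpsa at 1.33 ± 0.13 (SE), adjusted p = 9.41e-08. Rps3 gave 584, 634 and 671 CPM with 67NR and 1475, 1439 and 1186 with 4T07, 1.29 ± 0.16 (SE), adjusted p = 1.44e-06, with no overlap. Rpl23a was the member called lower, -0.55 ± 0.20 (SE), adjusted p = 0.0307, and not without 67NR lung replicate 1 or 4T07 lung replicate 1. Leaving out 1 library gave 64 to 75 members higher, and 28 of the 31 members with no near copy were among those called.

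Many genes of the related lists were higher in 4T07 than in 67NR lungs. All 8 snoRNA host genes were higher, with Snhg5 at 1.63 ± 0.21 (SE), adjusted p = 3.20e-06 and Gas5 at 1.59 ± 0.20 (SE), adjusted p = 2.16e-06. Of 46 biogenesis factors 34 were higher and none lower, with Ppan at 1.89 ± 0.25 (SE), adjusted p = 4.08e-06 and Nhp2 at 1.54 ± 0.20 (SE), adjusted p = 2.22e-06. Of 19 translation factors and other TOP genes 13 were higher and none lower, led by Pabpc1, the poly(A) binding protein, at 1.57 ± 0.15 (SE), adjusted p = 5.52e-08. Of 68 mitochondrial ribosomal proteins 38 were higher and 2 lower, and of 35 proteasome subunits 21 were higher. Among 13 regulators 5 were higher and 1 lower, with Myc at 2.32 ± 0.40 (SE), adjusted p = 7.01e-05. Each of these lists stands beside 24.6% of all genes higher. Neutrophil markers summed to 24610.0 to 29644 CPM in 4T07 lungs against 254 to 290.1 in 67NR lungs, and proliferation genes to 2248 to 3166 against 164 to 237. Erythroid genes summed to 73119.7 to 94101 CPM against 21325 to 28964, B cell genes to 449 to 603 against 168 to 213, and macrophage, T cell and plasma cell genes were higher too, with no overlap. Lung epithelium genes summed to 5995 to 14857 CPM against 32030.3 to 38364 and endothelium genes to 807 to 1298 against 2819 to 2981, and epithelium, fibroblast, adipocyte and striated muscle genes were lower likewise. The part of these differences in the members' values was not tested.

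In lungs with 4T1 tumors 41 members were lower than in controls and none higher, beside 4.34% and 7.45% of all genes, and the median was -0.51. A fold over 2 was passed by 9 lower and none higher, beside 1.05% and 3.56%. Rpl22l1 gave 7.41, 2.26 and 9.44 CPM beside the control values above, -2.03 ± 0.41 (SE), adjusted p = 0.00354. Rpl15 gave 71.0, 83.9 and 33.5 in control and 30.4, 19.6 and 28.8 in 4T1 lungs, -1.25 ± 0.25 (SE), adjusted p = 0.00323, a gene whose control lung of replicate 3 lay closest to the 4T1 lungs. The count was 20 without control lung replicate 1, 18 without control lung replicate 2, 63 without control lung replicate 3 and 14 without 4T1 lung replicate 2. Against 67NR lungs 25 members were higher and none lower, beside 7.24% and 4.71%, led by Rpl35 at 1.16 ± 0.25 (SE), adjusted p = 0.00533, Rpl26 at 0.99 ± 0.29 (SE), adjusted p = 0.0427 and Rps27a at 0.92 ± 0.22 (SE), adjusted p = 0.0134. The call of Rpl26 ended without 67NR lung replicate 2 or 3 or 4T1 lung replicate 1 or 3. Of these 1 passed a fold of 2 beside 3.23% of all genes higher and 1.80% lower by as much. The number higher was 4 without 67NR lung replicate 3, 7 without 4T1 lung replicate 1, 10 without 4T1 lung replicate 3 and 14 on library totals without TMM. Against 4T07 lungs 39 members were lower and 2 higher, beside 21.4% and 22.8%. Rpl13a stood at -1.56 ± 0.15 (SE), adjusted p = 9.45e-08 and Rplp0 at -1.55 ± 0.16 (SE), adjusted p = 2.22e-07, while Rpl23a and Rpl21 were the members called higher. The 4T1 lungs also held neutrophil markers, at 11850.2 to 28246 CPM, and their proliferation genes were at 253 to 331. Erythroid genes summed to 26584 to 36701 CPM in 4T1 and 17876 to 26328 in control lungs, and mitochondrially encoded genes took 5.29 to 5.83% and 6.48 to 8.09% of counts. Their part was not tested.

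The members that varied most between replicates elsewhere tended to have the larger decreases in several comparisons. The spread of each gene was taken as its within-group standard deviation in the 33 libraries of the other tissues, so that the libraries compared did not enter it. Across the 79 members, Spearman's rho between this spread and the log2 fold change was -0.69 for 67NR against control lungs, -0.66 for 4T07 against control scaffolds and -0.60 for 67NR against control spleens. Over the 67 members of at least 100 CPM the same values were -0.64, -0.65 and -0.55. Over all 79 members rho was -0.695 for 4T07 and -0.699 for 4T1 against the same control lungs. For 67NR against control scaffolds it was -0.0061, and for 4T07 and 4T1 against control spleens -0.20 and 0.017. For 4T07 against 67NR lungs it was -0.12, and over the 67 members -0.18. In lungs, the increase from 67NR to 4T07 did not follow the order of the spreads, while the changes of each from controls did. Tumor arms compared in scaffolds gave rho of -0.696 for 4T07 against 67NR, -0.46 for 4T1 against 67NR and 0.689 for 4T1 against 4T07. In lungs it was 0.24 for 4T1 against 67NR and 0.33 for 4T1 against 4T07. In spleens it was 0.32 for 4T07 against 67NR, 0.38 for 4T1 against 67NR and 0.28 for 4T1 against 4T07. For 4T1 against 4T07 tumors it was positive, 0.60, with the spread taken from the 36 libraries outside the tumors. Members are not independent of each other and share libraries and near copies, and these values describe their order.

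**Figure D5:**
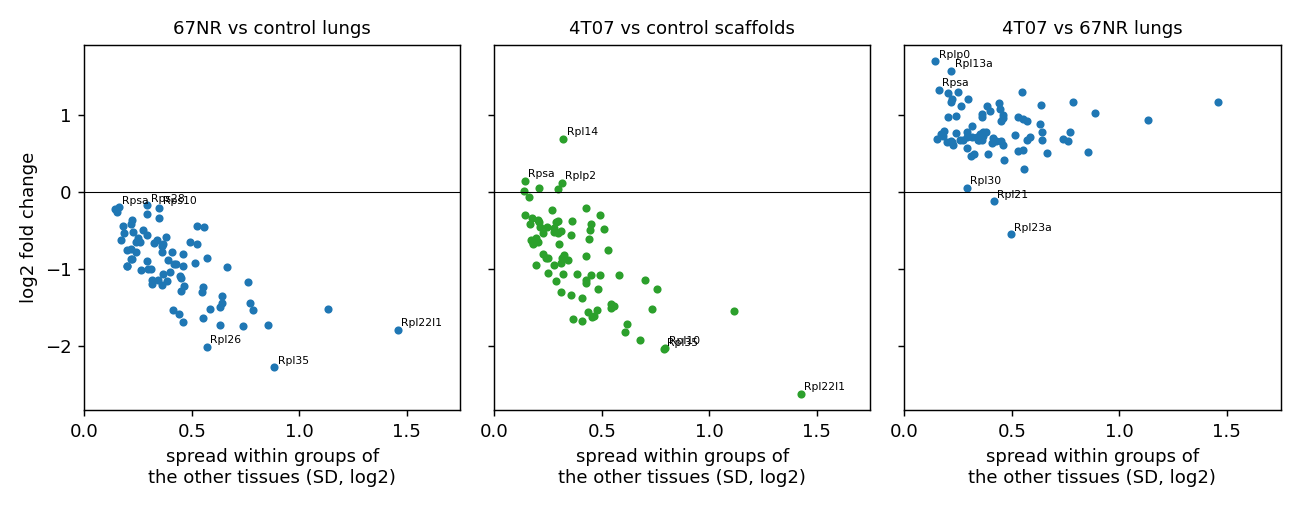
Log2 fold change of the 79 members (vertical) against their within-group standard deviation in libraries of the other tissues (horizontal, log2), in 3 panels. The points slope downward for 67NR against control lungs (Spearman's rho -0.69) and 4T07 against control scaffolds (-0.66), and show little slope for 4T07 against 67NR lungs (-0.12).

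In the spleens most calls were made between 4T1 and 67NR. There, 48 members were higher with 4T1 and 1 lower, beside 18.6% and 17.5% of all genes, with a median of 0.81, and 35 passed a fold of 2 beside 10.3% of all genes. Rps16, a protein of the small subunit, gave 196, 178 and 295 CPM with 67NR and 1059.7, 747 and 1493 with 4T1, 2.67 ± 0.50 (SE), adjusted p = 9.13e-04. Rpl10 gave 36.6, 20.4 and 38.6 with 67NR and 85.3, 91.8 and 273 with 4T1, 2.601 ± 0.68 (SE), adjusted p = 0.00899. Rpl7 was the member called lower, -0.53 ± 0.17 (SE), adjusted p = 0.0266, and not without 67NR spleen replicate 3. Leaving out 1 library gave 33 to 49 members higher. On library totals without TMM 34 were higher and 9 lower, with the median of all genes moved by -0.35. The 4T07 spleens were higher than the 67NR spleens in 28 members and lower in none, beside 13.1% and 14.0%. That count was 13 without 67NR spleen replicate 2, 15 without 4T07 spleen replicate 1 and 17 on library totals.

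Comparisons with the control spleens rested on a group that was itself spread out. For 67NR 17 members were lower and none higher, beside 2.54% and 3.69% of all genes, with Rps25 at -1.38 ± 0.44 (SE), adjusted p = 0.0951 and Rps27 at -1.35 ± 0.38 (SE), adjusted p = 0.0614. Rps27 gave 3145, 1793 and 979.5 CPM in control and 850.1, 657 and 999.7 in 67NR spleens, and the groups overlapped. The calls of Rps25 and Rps27 ended without any one of control spleen replicates 1 and 2 and the 3 67NR spleens, and that of Rps25 also without 4T07 spleen replicate 2, without 4T1 spleen replicate 1 or 2 and on library totals. The number lower was 1 without control spleen replicate 1, 0 without control spleen replicate 2 or 67NR spleen replicate 1, 4 without 67NR spleen replicate 2, 6 without 67NR spleen replicate 3, 8 without 4T1 spleen replicate 1, 29 without 4T07 spleen replicate 3 and 42 without control spleen replicate 3. It was 30 with DESeq2, 11 on library totals, 48 with no count filter and 30 with a minimum of 10 counts in every library.

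The 4T07 spleens had 13 members higher and 11 lower than controls, beside 16.0% and 16.5% of all genes. Both counts were close to the shares among all genes. Rpl14 gave 126, 182 and 204 CPM in control and 233, 493 and 203 in 4T07 spleens, 1.05 ± 0.28 (SE), adjusted p = 0.0119, and the groups touched at 204 and 203. It was not called without 4T07 spleen replicate 2. Rpl26 had the largest decrease, at -1.18 ± 0.37 (SE), adjusted p = 0.0282. The split on library totals was 6 higher and 21 lower. The number higher was 5 without control spleen replicate 2, 6 without control spleen replicate 3 or 4T07 spleen replicate 2 and 7 without 4T07 spleen replicate 1. The number lower was 3 without control spleen replicate 1, 4 without control spleen replicate 2 or 4T07 spleen replicate 3, 17 without control spleen replicate 3 and 4 when only the 2 groups were fitted.

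The 4T1 spleens had 17 members higher and 9 lower than controls, beside 18.0% and 17.1%. The former was a slightly larger share than among all genes and the latter a smaller one. Rpl7a gave 231, 128 and 87.3 CPM in control and 459, 254 and 449.7 in 4T1 spleens, 1.64 ± 0.40 (SE), adjusted p = 0.00533. Rps28 gave 240.0, 167 and 133 in control and 516, 337 and 405 in 4T1 spleens, 1.47 ± 0.24 (SE), adjusted p = 2.45e-04, and Rps2, a protein of the mRNA entry site, stood at 1.41 ± 0.38 (SE), adjusted p = 0.0104. Neither Rpl7a nor Rps28 overlapped between the groups. The split on library totals was 7 higher and 15 lower. The number higher was 27 without control spleen replicate 1, 9 without control spleen replicate 2 and 8 without control spleen replicate 3 or 4T1 spleen replicate 3. The number lower was 3 without control spleen replicate 1, 5 without control spleen replicate 2 and 4 without 4T1 spleen replicate 1 or 2. Between 4T1 and 4T07 spleens edgeR called no member, with 20 at an unadjusted p under 0.05 and 6 called by DESeq2. Without 4T07 spleen replicate 1 the number was 12.

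The makeup of these spleens differed. Neutrophil markers summed to 13199 to 34396 CPM with 4T07 or 4T1 and to 1008 to 1763 in control and 67NR spleens. B cell markers summed to 409 to 697 and 1541 to 2082 CPM. Erythroid genes were at 120924 to 158157 and 85717 to 107102, and proliferation genes at 3317 to 4332 and 1604 to 3472. Control and 67NR spleens differed in turn. Proliferation genes summed to 1604 to 2238 CPM in control and 3210 to 3472 in 67NR spleens, the latter overlapping the 4T1 spleens at 3459 to 3651. Mitochondrially encoded genes took 8.40 to 10.0% of counts in control and 6.56 to 8.08% in 67NR spleens. Of the related lists, mitochondrial ribosomal proteins were higher in 29 of 68 and lower in 3 between 4T1 and 67NR spleens, and biogenesis factors in 13 and 5 of 46, beside 18.6% of all genes higher and 17.5% lower. T cell genes summed to 158 to 195 CPM with 4T1 and 353 to 390.3 with 67NR, and plasma cell genes to 357 to 418 and 865 to 991. The part of the makeup in the members' values was not tested.

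In the scaffolds most members were lower with 4T07 tumors than in controls. Against control scaffolds 49 were called lower and 1 higher, beside 8.50% and 9.22% of all genes, with a median of -0.83 against 0.044 for all genes, and 32 lower and none higher passed a fold of 2, beside 3.59% and 3.85% of all genes. Rpl35 gave 95.4, 158 and 132 CPM in control and 60.7, 23.8 and 18.0 in 4T07 scaffolds, -2.04 ± 0.48 (SE), adjusted p = 0.0109. Rpl10 gave 82.4, 224 and 194 in control and 59.2, 46.6 and 28.0 in 4T07 scaffolds, -2.03 ± 0.44 (SE), adjusted p = 0.00712, and Rpl22l1 stood at -2.62 ± 0.61 (SE), adjusted p = 0.0113. The groups did not overlap for Rpl35 or Rpl10. Rps14 gave 818, 638 and 697 CPM in control and 523, 350.3 and 372 in 4T07 scaffolds, -0.94 ± 0.20 (SE), adjusted p = 0.00671. The member called higher was Rpl14, 0.70 ± 0.25 (SE), adjusted p = 0.0859, a call that ended without any one of the 3 control and 3 4T07 scaffolds and without 67NR scaffold replicate 2 or 3. Without 4T07 scaffold replicate 3 the number lower was 30, and leaving out any other single library gave at most 58.

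The stalk proteins Rplp0 and Rplp2 were not called there. Rplp0 gave 278, 251 and 263 CPM in control and 337, 251 and 254 in 4T07 scaffolds, overlapping, -0.060 ± 0.17 (SE), adjusted p = 0.876, and Rplp2 stood at 0.12 ± 0.22 (SE), adjusted p = 0.788. Of 68 mitochondrial ribosomal proteins 20 were lower and 3 higher, of 46 biogenesis factors 7 and 2, and of 19 translation factors and other TOP genes 5 and 1, beside 8.50% of all genes lower and 9.22% higher. Against 67NR scaffolds the 4T07 scaffolds had 42 members lower and none higher, beside 6.99% and 7.69%, and 31 lower and none higher by a fold over 2, beside 3.03% and 2.82%. Among them were Rpl22l1 (-2.79 ± 0.61 (SE), adjusted p = 0.00990) and Rpl10 (-1.90 ± 0.44 (SE), adjusted p = 0.0123), the latter not called with its copies added. This count was 25 without 67NR scaffold replicate 1 or 4T07 scaffold replicate 2 and 26 without 4T07 scaffold replicate 3. Neutrophil markers summed to 462, 1778 and 276 CPM in control and 8916, 2308 and 1998 in 4T07 scaffolds. Erythroid genes summed to 1976 to 2391 CPM in control and 3330.4 to 25642 in 4T07 scaffolds, plasma cell genes to 108 to 169 and 193 to 293, and adipocyte genes to 535 to 698 and 272 to 337. Mitochondrially encoded genes took 8.98 to 11.6% of counts in control and 6.55 to 6.94% in 4T07 scaffolds. The part of these differences was not tested.

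Scaffolds with 67NR or 4T1 tumors gave fewer calls. Between 67NR and control scaffolds edgeR and DESeq2 called no member, with 0 at an unadjusted p under 0.05, the median was -0.071, and 0% of all genes were lower and 0% higher. Between 4T1 and control scaffolds edgeR called none, beside 0.00903% of all genes lower, although the median was -0.50, 34 members had an unadjusted p under 0.05 and DESeq2 called 16. Against 67NR scaffolds the median was -0.44, with 26 members under 0.05 unadjusted, none called by edgeR beside 0.0135% of all genes, and 10 called by DESeq2. With no count filter edgeR called 27 and 19 members in these comparisons. Between 4T1 and 4T07 scaffolds Rpl10 (1.597 ± 0.43 (SE), adjusted p = 0.0978) and Rps2 (0.84 ± 0.23 (SE), adjusted p = 0.0970) were higher, beside 1.30% of all genes, 1 of them by a fold over 2, beside 0.636%. That number ranged from 0 to 12, with 8 without 4T07 scaffold replicate 1, 12 without 4T1 scaffold replicate 2 and 0 without any of control scaffold replicates 2 and 3, the 3 67NR scaffolds, 4T07 scaffold replicates 2 and 3 and 4T1 scaffold replicate 3. The calls of Rpl10 and Rps2 also ended on library totals, with copies added and with only the 2 groups fitted, that of Rpl10 without 4T07 scaffold replicate 1, and that of Rps2 without 4T1 scaffold replicate 2.

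The 3 control tissues were compared with each other in one fit, which had no term for the mouse and took the libraries as independent. Spleens were higher than lungs in 41 members and lower in 2, beside 27.8% and 28.5% of all genes. Rplp0 gave 427, 509 and 478 CPM in spleens and 199, 164 and 188 in lungs, 1.39 ± 0.16 (SE), adjusted p = 3.04e-06. Rps20 stood at 1.25 ± 0.24 (SE), adjusted p = 5.07e-04, while Rpl21, at -0.70 ± 0.22 (SE), adjusted p = 0.0144, was lower. Without control lung replicate 3 or control spleen replicate 1 the number higher was 24. Lungs were lower than scaffolds in 27 members and higher in 2, beside 23.7% and 25.6%, so the number higher was a smaller share than among all genes. Lower were Rpl37a at -1.44 ± 0.29 (SE), adjusted p = 9.79e-04 and Rps28 at -1.39 ± 0.21 (SE), adjusted p = 7.18e-05. The number lower was 14 without control lung replicate 3, and on library totals 15 were lower and 3 higher. Spleens had 9 members higher and 4 lower than scaffolds, beside 25.5% and 25.9%, both smaller shares than among all genes, and on library totals 18 and 4. The number higher was 5 without control scaffold replicate 2 or 3 or control spleen replicate 2 and 16 without control spleen replicate 3. Rps10, which entered the set through the spleens, is counted among the members higher in spleens in both comparisons. Rpl39l, which entered through the scaffolds, is counted among those lower than in scaffolds in both comparisons. Their place in these counts follows in part from the condition of entry.

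Whether the effect of a tumor differed between tissues was tested as a difference of differences. One fit took the 36 libraries of scaffolds, lungs and spleens. It had no term for the mouse, which the labels do not give. Libraries of different tissues were thus taken as independent, and the p-values rest on that. The effect of 4T07 was higher in lungs than in scaffolds for 17 members, beside 8.62% of all genes higher and 12.0% lower, led by Rpl13a at 1.70 ± 0.26 (SE), adjusted p = 9.74e-06 and Rplp0 at 1.40 ± 0.23 (SE), adjusted p = 2.29e-05. It was higher in spleens than in scaffolds for 26, beside 7.49%, with Rps16 at 2.22 ± 0.61 (SE), adjusted p = 0.0132. Between spleens and lungs it was higher for 6 and lower for 5, beside 10.8% and 11.2%, both smaller shares than among all genes, with Rpsa at -0.84 ± 0.20 (SE), adjusted p = 0.00250. The effect of 4T1 was higher in spleens than in scaffolds for 18 members (beside 7.65%) and higher in spleens than in lungs for 29 (beside 8.36%), with Rps28 at 2.21 ± 0.27 (SE), adjusted p = 3.70e-06 in the former and Rps2 at 2.27 ± 0.46 (SE), adjusted p = 8.81e-04 in the latter. For 4T1 in lungs against scaffolds no member was called by edgeR or DESeq2, with 0 at an unadjusted p under 0.05, and 2 were called by edgeR with no count filter. These counts moved with single libraries. For 4T07 in lungs against scaffolds the number was 8 without control lung replicate 3 and 29 without 4T07 scaffold replicate 1, and for spleens against scaffolds it was 13 without control spleen replicate 3 and 42 without control spleen replicate 1. The last library also took the 6 members for spleens against lungs to 23, and the 18 for 4T1 in spleens against scaffolds to 39. The 29 for 4T1 in spleens against lungs was 15 without control spleen replicate 3. On library totals 2 members were higher and 10 lower for 4T07 in spleens against lungs.

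For 67NR no difference between tissues was called for any member by edgeR with the count filter. In lungs against scaffolds 42 members had an unadjusted p under 0.05, in spleens against scaffolds 19 and in spleens against lungs 5, and DESeq2 called 1, 2 and 0. With no count filter edgeR called 32, 17 and 4, and without control spleen replicate 3 it called 3 in spleens against scaffolds. Whether the calls in 67NR lungs and the lack of calls in 67NR scaffolds differ thus depended on the filter. The comparisons with controls of one tissue share the same 3 control libraries, so a low or high control library enters each of them alike.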

How the data were processed

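RNA of scaffolds, lungs, spleens and tumors was sequenced as 3' tags with molecular identifiers (Lexogen QuantSeq), 3 libraries in each of 15 groups. The authors deposited counts per gene symbol, made per the submitters' notes with Trim Galore 0.5.0, STAR 2.6.0 and featureCounts. The genome build and the use of the identifiers are not given in the sources used here. In the table, 120 lines that repeated a symbol were summed. Each library held 3491888 to 8175380 counts, and no pair of libraries within a group was identical in 45 pairs compared. CPM are counts per 1000000 of a library's total.

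Differences were tested with edgeR 4.0.16 (R 4.3.3) by the quasi-likelihood F test with TMM scaling, fitted to all libraries of a tissue (or to all control tissues, or to the 36 libraries of 3 tissues for differences between tissues), over genes with more than 10 counts. Benjamini-Hochberg adjustment was over all genes, and calls were made at adjusted p under 0.05 in tumors and 0.10 elsewhere. Log2 fold changes are given with standard errors. The within-group spread is that of log2(CPM + 1). Summed shares were compared by a two-sided exact permutation test. Scripts were tested on simulated data. Near copies were sought with BLAST+ 2.17.0 in NCBIM37 with GENCODE vM1, used to find copies only, and promoters came from RefSeq on GRCm38.p6. Tables were handled in Python 3.11.15 with pandas 2.3.3.

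The members and the lists of related genes and markers were chosen with earlier results of these data known. Genes are named if they belong to a paralog pair or have a textbook role. Others are named if they were among the 3 largest called changes in a direction of a comparison, or among the 2 largest of a related list. Some of the genes so chosen are not reported here. Alternatives were DESeq2 1.42.0, other scalings, other count filters, fits of 2 groups, each library left out, and, chosen after seeing the data, copies added to their gene.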

Additional observations from a re-analysis of the deposited data

Results flagged for a closer look

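The effect of a tumor on the members differed between tissues in 6 counts, each from the test of the difference itself (edgeR, adjusted p under 0.10). That fit had no term for the mouse and took the libraries as independent. For 4T07 against control the log2 fold change was higher in lungs than in scaffolds for 17 members, beside 8.62% of all genes, and higher in spleens than in scaffolds for 26, beside 7.49%. Between spleens and lungs it was higher in spleens for 6 members, Rpl23a, Rpl36 and Rps15 having the largest differences, and lower for 5, with Rps10, Rpsa and Rplp0 largest. Of these, Rps10 had entered the set through its level in the spleens. These counts stand beside 10.8% of all genes higher and 11.2% lower, larger shares than among the members. For 4T1 against control it was higher in spleens than in scaffolds for 18 members, beside 7.65% of all genes, and higher in spleens than in lungs for 29, beside 8.36%. In each case the comparison rests on the same 3 control libraries per tissue. Leaving out control spleen replicate 1 raised the counts to 42 (4T07, spleens minus scaffolds), 23 (4T07, spleens minus lungs) and 39 (4T1, spleens minus scaffolds). The count of 17 was 29 without 4T07 scaffold replicate 1, 8 without control lung replicate 3, 9 without 4T07 scaffold replicate 3 or 4T07 lung replicate 2 and 10 without 4T07 scaffold replicate 2. The count of 26 was 13 without control spleen replicate 3 or 4T07 scaffold replicate 3, 16 without 4T07 spleen replicate 1 and 17 without control scaffold replicate 3, control spleen replicate 2, 4T07 scaffold replicate 2 or 4T07 spleen replicate 2. The count of 6 was 11 without control lung replicate 3, 10 without 4T07 spleen replicate 3 and 3 without control spleen replicate 2 or 4T07 spleen replicate 2, and that of 5 was 3 without 4T07 lung replicate 1. The count of 18 was 31 without 4T1 scaffold replicate 3. The count of 29 was 15 without control spleen replicate 3, 16 without control lung replicate 2, 4T1 lung replicate 2 or 4T1 spleen replicate 3, 17 without control lung replicate 1 and 18 without control spleen replicate 2.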

How the results depend on the processing

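The 273 values of 47 genes chosen by the naming rule kept their sign under all alternatives run except Rpl10 in 4T07 against control lungs, at 0.13 with copies added to the gene, and Rpl14 in control spleens against control lungs, at 0.31 with copies added. Of these values 156 were called under every alternative and 117 lost the call under at least 1, 102 of them without a single library. Those lost among the values printed above are named beside them. Counts of called members that moved by more than 1.5 times are given by setting, with the cause not tested. DESeq2's Wald test gave 16 for 4T1 vs control scaffolds, 10 for 4T1 vs 67NR scaffolds, 10 for 4T1 vs 4T07 scaffolds (higher), 30 for 67NR vs control spleens (lower), 6 for 4T1 vs 4T07 spleens, 1 for 67NR vs control, lungs minus scaffolds and 2 for 67NR vs control, spleens minus scaffolds. Library totals without TMM gave 0 for 4T1 vs 4T07 scaffolds (higher), 14 for 4T1 vs 67NR lungs (higher), 11 for 67NR vs control spleens (lower), 6 for 4T07 vs control spleens (higher), 21 for 4T07 vs control spleens (lower), 7 for 4T1 vs control spleens (higher), 15 for 4T1 vs control spleens (lower), 17 for 4T07 vs 67NR spleens (higher), 1 for 4T1 vs 4T07 spleens, 18 for 4T1 vs 67NR tumors (lower), 15 for control lungs vs control scaffolds (lower), 18 for control spleens vs control scaffolds (higher), 15 for 4T07 vs control, spleens minus scaffolds (higher), 2 for 4T07 vs control, spleens minus lungs (higher), 10 for 4T07 vs control, spleens minus lungs (lower) and 15 for 4T1 vs control, spleens minus lungs (higher). With no count filter the numbers were 27 for 4T1 vs control scaffolds, 19 for 4T1 vs 67NR scaffolds, 20 for 4T1 vs 4T07 scaffolds (higher), 48 for 67NR vs control spleens (lower), 18 for 4T07 vs control spleens (lower), 43 for 4T07 vs 67NR spleens (higher), 18 for 4T1 vs 4T07 spleens, 37 for 4T1 vs 4T07 tumors (higher), 41 for control lungs vs control scaffolds (lower), 32 for 67NR vs control, lungs minus scaffolds, 17 for 67NR vs control, spleens minus scaffolds, 4 for 67NR vs control, spleens minus lungs, 29 for 4T07 vs control, lungs minus scaffolds (higher), 18 for 4T07 vs control, spleens minus lungs (higher), 2 for 4T1 vs control, lungs minus scaffolds, 41 for 4T1 vs control, spleens minus scaffolds (higher) and 45 for 4T1 vs control, spleens minus lungs (higher). With at least 10 counts in every library they were 30 for 67NR vs control spleens (lower) and 1 for 4T1 vs 4T07 spleens. With only the 2 groups compared in the fit they were 0 for 4T1 vs 4T07 scaffolds (higher), 4 for 4T07 vs control spleens (lower) and 46 for control lungs vs control scaffolds (lower). Leaving out 1 library at a time gave 30 to 58 for 4T07 vs control scaffolds (lower), 0 to 2 for 4T1 vs control scaffolds, 25 to 54 for 4T07 vs 67NR scaffolds (lower), 0 to 12 for 4T1 vs 4T07 scaffolds (higher), 12 to 38 for 4T07 vs control lungs (lower), 14 to 63 for 4T1 vs control lungs (lower), 4 to 31 for 4T1 vs 67NR lungs (higher), 0 to 42 for 67NR vs control spleens (lower), 5 to 19 for 4T07 vs control spleens (higher), 3 to 17 for 4T07 vs control spleens (lower), 8 to 27 for 4T1 vs control spleens (higher), 3 to 11 for 4T1 vs control spleens (lower), 13 to 40 for 4T07 vs 67NR spleens (higher), 0 to 12 for 4T1 vs 4T07 spleens, 21 to 40 for 4T1 vs 67NR tumors (lower), 3 to 33 for 4T1 vs 4T07 tumors (higher), 14 to 40 for control lungs vs control scaffolds (lower), 5 to 16 for control spleens vs control scaffolds (higher), 24 to 47 for control spleens vs control lungs (higher), 0 to 3 for 67NR vs control, spleens minus scaffolds, 8 to 29 for 4T07 vs control, lungs minus scaffolds (higher), 13 to 42 for 4T07 vs control, spleens minus scaffolds (higher), 3 to 23 for 4T07 vs control, spleens minus lungs (higher), 3 to 6 for 4T07 vs control, spleens minus lungs (lower), 14 to 39 for 4T1 vs control, spleens minus scaffolds (higher) and 15 to 42 for 4T1 vs control, spleens minus lungs (higher). The log2 ratio of summed shares changed sign for 67NR against control scaffolds without 67NR scaffold replicate 3 (0.071) or control scaffold replicate 3 (0.021), within a range of -0.087 to 0.071 over libraries left out, and for 4T1 against control spleens without control spleen replicate 1 (0.055), within -0.30 to 0.055. It moved from -0.49 to -0.28 for 4T1 against control scaffolds without 4T1 scaffold replicate 2. TMM factors computed without the members, DESeq2 size factors in edgeR and the copies added to the genes moved no count of members by more than 1.5 times. Library totals without TMM moved the median log2 fold change of all genes by -0.35 to 0.25 over the comparisons.

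No paired analysis was possible because the labels number the libraries of a group in no way that links them to libraries of another group. With 3 libraries a group, single libraries decide many counts. Counts of 3' tags cannot separate a gene from a copy that shares its end, and at most 3 counts in a library were taken as the floor of detection.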

Other observations

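Rps4l, the paralog of Rps4x whose mean lay just below the level of entry, followed tissue and arm. It gave 25.3, 19.8 and 16.4 CPM in control, 13.0, 24.5 and 23.9 in 67NR, 17.1, 13.1 and 13.3 in 4T1 and 5.93, 3.92 and 6.07 in 4T07 lungs, the last below every other lung. Spleens gave at most 5.75 CPM. Rpl3l, the paralog of Rpl3 found in striated muscle, stayed at or below 6.45 CPM in all 45 libraries.

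Genes that encode ribosomal proteins under other names were called with the members in some comparisons and not in others. Between 4T07 and 67NR lungs Rack1, a scaffold protein of the small subunit, was higher (0.91 ± 0.15 (SE), adjusted p = 6.17e-05), and so was Rpl36al (1.06 ± 0.20 (SE), adjusted p = 1.55e-04). In 67NR against control lungs Fau stood at -0.72 ± 0.16 (SE), adjusted p = 0.00996 and Rack1 at -0.31 ± 0.15 (SE), adjusted p = 0.233. In 4T07 against 67NR tumors Rack1 stood at -0.67 ± 0.18 (SE), adjusted p = 0.00790, while Fau stood at 0.12 ± 0.20 (SE), adjusted p = 0.671.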
